A study of Mus musculus with 7 samples.

Results

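The polyamine genes described here are 10 genes that encode the core enzymes of polyamine synthesis and breakdown and the proteins that set the amount of the first enzyme. They are Sat1, Odc1, Amd1, Srm, Sms, Oaz1, Oaz2, Azin1, Smox and Paox, and they were picked by name as 10 of the 47643 gene rows of the deposited table. RNA was measured in tumours grown under the skin of the flank of C57BL/6 mice from MTOs, the name the labels give to the injected cells. All 7 tumours carried the genotype sgPrkci/Prkcz, which by its name targets the genes of both atypical protein kinase C isoforms, so the vehicle tumours shared it and no tumour without it was compared. The mice were injected at 7 weeks of age and were 13 weeks old at profiling, per the labels. From day 15 after injection, 4 tumours (replicates 11, 12, 19 and 37) were exposed to PEGPH20 at 0.0375 mg/kg, given 2 times a week for 3 weeks, and 3 tumours (replicates 14, 16 and 33) to vehicle on the same schedule. PEGPH20 is a pegylated form of hyaluronidase, the enzyme that cuts the matrix sugar polymer hyaluronan. The labels do not say whether the injected cells were 1 clone or how tumours were spread over mice, so the p-values below measure the spread between these 7 libraries.

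Polyamines are small positively charged molecules that bind RNA and DNA and are needed for growth and translation. Ornithine decarboxylase makes putrescine from ornithine, and the 2 aminopropyl groups that turn putrescine into spermidine and then spermine come from decarboxylated S-adenosylmethionine. Acetylation followed by export or oxidation runs the pathway backwards, while antizymes hold ornithine decarboxylase down and antizyme inhibitors release it. In the intestinal epithelium, the pathway is best known for its link to proliferation, and Odc1 is a textbook target of Myc.

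Antizyme is itself made through a polyamine signal. The ribosome has to shift by 1 base at a stop codon inside the reading frame, and polyamines favour that shift. The sites of Oaz1 and Oaz2 are shown because this is the control step for which the genes are known, and because the 3′ reads analysed here do not show whether a ribosome shifted. The capitals mark the last codon of the first frame and the stop codon that follows it, on GRCm38, both on the plus strand.
Oaz1 (chr10:80828280-80828309): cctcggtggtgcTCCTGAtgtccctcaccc
Oaz2 (chr9:65686257-65686286): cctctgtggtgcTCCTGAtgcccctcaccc
The pair was identical at 28 of 30 bases. The coding transcripts of both genes in the annotation (GENCODE release M21) leave out 1 base inside this stop codon, which is how the annotation writes the shift.

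The promoters of Sat1 and Odc1 are shown because these genes open the breakdown and the synthesis branch and because their RNA behaved differently in the tumours. Each window runs from 250 bases before to 50 bases after the start in RefSeq (GRCm38.p6), in the direction of the gene, and the capitals mark GC boxes, written GGGCGG on either strand.
Sat1 (chrX:155216400-155216699, minus strand): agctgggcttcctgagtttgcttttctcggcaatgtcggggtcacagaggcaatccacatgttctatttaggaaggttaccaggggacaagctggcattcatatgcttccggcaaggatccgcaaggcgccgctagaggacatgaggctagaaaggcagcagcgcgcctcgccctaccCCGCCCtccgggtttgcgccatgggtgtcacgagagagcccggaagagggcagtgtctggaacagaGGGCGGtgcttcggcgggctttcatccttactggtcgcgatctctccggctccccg
Odc1 (chr12:17544623-17544922, plus strand): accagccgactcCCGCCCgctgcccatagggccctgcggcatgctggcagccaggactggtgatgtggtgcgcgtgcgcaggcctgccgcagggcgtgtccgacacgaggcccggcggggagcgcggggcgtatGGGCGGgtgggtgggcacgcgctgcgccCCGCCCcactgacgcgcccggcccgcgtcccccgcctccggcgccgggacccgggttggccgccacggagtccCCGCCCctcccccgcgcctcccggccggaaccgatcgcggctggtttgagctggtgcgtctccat
The Sat1 window held 2 GC boxes and the Odc1 window 4. RefSeq windows were found for 8 of the 10 genes, 10 windows in all, since Paox and Sms had 2 each; Srm and Azin1 had none in the table. A GC box stood in 8 of these 10 windows and in 35.7% of 32851 mouse promoter windows of the same length. The 2 Paox windows, from 140125407 and from 140125435, share most of their bases and the same 3 GC boxes. They are thus not independent in that count. The E-box CACGTG, the letters that Myc with its partner Max is known to bind, stood in 1 of the 10, a window of Sms, against 7.15% of all windows. The antioxidant response core TGACNNNGC stood in 2, Smox and Oaz1, against 12.4% of all windows, and TATAAA in 1, Oaz1, against 13.6%. All motifs were searched on both strands, and a match describes letters in the window and nothing about binding.

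The libraries held 4582238 to 6703775 reads in the PEGPH20 tumours and 4204388 to 4304108 in the vehicle tumours. Values are normalised read counts, which are reads divided by 1 size factor per library, and the 10 genes had 42 to 545 reads each per library. Epithelial markers were present throughout: Epcam lay between 4188 and 5293 normalised read counts in PEGPH20 tumours and between 5703 and 6398 in vehicle tumours. Cdh1, the epithelial cadherin, lay between 5767 and 6795 in PEGPH20 tumours and between 5577 and 7041 in vehicle tumours. Over 10 epithelial markers, 3 had a larger and 7 a smaller mean with PEGPH20. The mean log2 level was 9.25 to 9.35 in PEGPH20 tumours and 9.27 to 9.42 in vehicle tumours. That mean joins markers that differed in opposite directions. Like Epcam, Cldn4 (161 to 231 against 237 to 326) and Elf3 (281 to 373 against 394 to 513) were lower with PEGPH20 without overlap. Cldn7 was higher without overlap (369 to 439 against 242 to 281). Of all genes tested, 4.45% were lower and 6.72% higher without overlap. Cdx2, an intestinal transcription factor, was low at 6.08 to 16.1 in PEGPH20 tumours and 2.60 to 9.19 in vehicle tumours. Over all genes, limma called 0 of 17132 at an adjusted p under 0.05 (a share of 0%), with 2083 genes (12.2%) at an unadjusted p under 0.05. The edgeR quasi-likelihood test called 0 of 13079 (0%), and 1704 genes (13%) had an unadjusted p under 0.05 there. DESeq2 passed 77 of 7864 genes (0.979%).

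The 10 genes were chosen with their PEGPH20 and vehicle values known, so their differences are given as descriptions and carry no p-value. Sat1 was the gene that stood apart: its RNA was lower in every PEGPH20 tumour than in every vehicle tumour. The other 9 genes had overlapping groups. Of the 10, 8 had a larger and 2 a smaller mean log2 value with PEGPH20, and the median difference was 0.12 on the log2 scale, against 0.03 for all genes tested. The 8 were 7 under TMM or DESeq2 scaling in limma, 6 with edgeR or DESeq2 and 5 without vehicle tumour 14. All 10 passed the filter on low values, a mean of at least 1. Genes lower in PEGPH20 tumours with no overlap made up 4.45% of all genes tested and genes higher with no overlap 6.72%, against 1 and 0 of the 10 here, counts from which nothing is read because the choice of genes used this contrast.

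**Figure D1:**
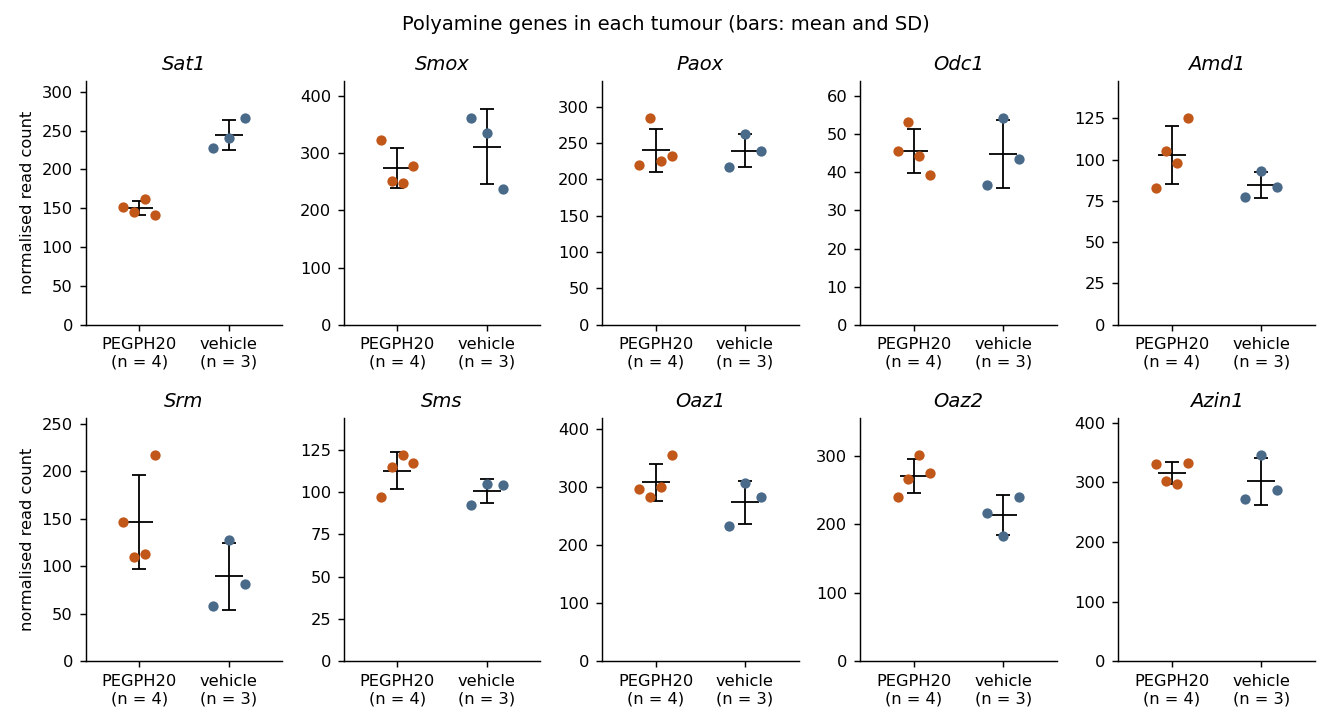
Normalised read count (vertical axes, linear, starting at 0) of each of the 10 polyamine genes, with PEGPH20 tumours left and vehicle tumours right; points are tumours and the bars are the group mean with 1 SD (n = 4 and 3). The Sat1 points lie between 141 and 162 in PEGPH20 tumours and between 227 and 266 in vehicle tumours, and in the other 9 panels the groups overlap.

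Among the breakdown enzymes, Sat1 (ENSMUSG00000025283, GRCm38 chromosome X, 155213132 to 155216449, minus strand) encodes spermidine/spermine N1-acetyltransferase, which acetylates both higher polyamines and so commits them to export or oxidation. It had 152, 145, 162 and 141 normalised read counts in PEGPH20 tumours 11, 12, 19 and 37, against 227, 239.9 and 266 in vehicle tumours 14, 16 and 33. The lowest vehicle tumour was thus well above the highest PEGPH20 tumour. Sat1 averaged 149.7 ± 9.22 with PEGPH20 and 244 ± 20.2 with vehicle (SD, n = 4 and 3), a difference of -0.70 ± 0.10 (SE) on the log2(value + 1) scale. Over the 15 other settings tried, among them every library left out in turn, the difference lay between -0.75 and -0.64, and the groups also stayed apart in CPM and under DESeq2 size factors. The Sat1 reads, 183 to 293 per library with PEGPH20 and 260 to 307 with vehicle, were not shared with any copy that had a read in the table.

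Smox (chromosome 2, 131491496 to 131525922, plus strand) encodes spermine oxidase, which turns spermine straight back into spermidine and releases hydrogen peroxide. Its values were 323, 251, 247 and 277 in PEGPH20 tumours 11, 12, 19 and 37, against 361, 335 and 237 in vehicle tumours 14, 16 and 33. Vehicle tumour 33 was the lowest of all 7 and vehicle tumours 14 and 16 the highest, so the vehicle group spanned the PEGPH20 group. The means were 275 ± 35.1 with PEGPH20 and 311 ± 65.5 with vehicle, a log2 difference of -0.16 ± 0.16. That value was -0.05 without vehicle tumour 14 and -0.35 without vehicle tumour 33. Paox (chromosome 7, 140115799 to 140137224, plus strand) encodes the peroxisomal oxidase that acts on the acetylated polyamines Sat1 makes. It had 219, 284, 225 and 232 in PEGPH20 tumours 11, 12, 19 and 37, against 217, 262 and 239 in vehicle tumours 14, 16 and 33. The means, 240.0 ± 29.7 with PEGPH20 and 239 ± 22.4 with vehicle, lay within 1 SD of each other, the log2 difference was 0.0013 ± 0.12, and its sign changed in 6 of the 15 other settings. Exons of Echs1 overlap Paox on the other strand and the sources used here do not give whether counting used strand, which makes the Paox value uncertain. Both oxidases thus had overlapping groups, unlike Sat1.

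Odc1 (chromosome 12, 17544794 to 17551505, plus strand) encodes ornithine decarboxylase, the first and most tightly controlled enzyme of synthesis. Its values were 45.6, 53.1, 44.2 and 39.4 in PEGPH20 tumours 11, 12, 19 and 37, against 36.6, 54.2 and 43.4 in vehicle tumours 14, 16 and 33. The lowest and the highest of the 7 were both vehicle tumours. Odc1 averaged 45.6 ± 5.66 with PEGPH20 and 44.7 ± 8.88 with vehicle, a log2 difference of 0.04 ± 0.19, and the sign changed in 4 of the 15 other settings. When a library was left out it lay between -0.10, without vehicle tumour 14, and 0.18, without vehicle tumour 16. The difference was 0.28 without PEGPH20 tumours 11 and 37 and vehicle tumour 16, the 3 libraries richest in muscle transcripts. It had the fewest reads of the 10 genes, 54 to 80 per PEGPH20 library and 42 to 59 per vehicle library, so a small difference was not detectable at this depth. The annotation holds 11 Odc1 copies of at least 90% identity over 400 bases or more. Those in the table had 91 reads over the 7 libraries against 417 for Odc1. Of the 91 reads, 90 were counted for a single pseudogene, Gm12846, at 91.8% identity. With the values of the copies added to Odc1, the log2 difference was 0.09.

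Amd1 (chromosome 10, 40287458 to 40302186, minus strand) encodes S-adenosylmethionine decarboxylase, which supplies the aminopropyl groups. It had 82.9, 105, 97.8 and 125 in PEGPH20 tumours 11, 12, 19 and 37, against 77.6, 92.8 and 83.3 in vehicle tumours 14, 16 and 33. PEGPH20 tumours 12, 19 and 37 were above every vehicle tumour and PEGPH20 tumour 11 was not. The means were 103 ± 17.4 with PEGPH20 and 84.6 ± 7.70 with vehicle, a log2 difference of 0.26 ± 0.16 that was 0.165 without PEGPH20 tumour 37. The near-identical gene Amd2 reaches the same 3′ end and Amd1 reads could have been split between them, so the value is uncertain; all copies of Amd1 together had 24 reads, against 886 for Amd1.

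Srm (chromosome 4, 148591503 to 148594993, plus strand) encodes spermidine synthase, which adds the first aminopropyl group. Its values were 146, 110.2, 113 and 217 in PEGPH20 tumours 11, 12, 19 and 37, against 58.4, 128 and 81.6 in vehicle tumours 14, 16 and 33. Vehicle tumour 16 lay above PEGPH20 tumours 12 and 19, and the other 2 vehicle tumours lay below every PEGPH20 tumour. Srm averaged 146 ± 49.6 with PEGPH20 and 89.2 ± 35.3 with vehicle, a log2 difference of 0.72 ± 0.29, close in size to that of Sat1 and with the largest SE of the 10 genes. It was 0.46 without vehicle tumour 14 and 1.02 without vehicle tumour 16. Sms (chromosome X, 157443855 to 157492287, minus strand) encodes spermine synthase, which adds the next group. It had 96.9, 115, 122 and 117 in PEGPH20 tumours 11, 12, 19 and 37, against 92.4, 105 and 104 in vehicle tumours 14, 16 and 33, so only PEGPH20 tumour 11 lay within the vehicle range. The means were 113 ± 11 with PEGPH20 and 100.4 ± 6.96 with vehicle, a log2 difference of 0.16 ± 0.12 that was 0.11 without vehicle tumour 14 and 0.27 without the 3 muscle-rich libraries.

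The level of Srm followed a list of 10 proliferation genes in part. The mean log2 level of that list was 8.69, 8.67, 8.40 and 8.55 in PEGPH20 tumours 11, 12, 19 and 37, against 8.01, 8.58 and 7.86 in vehicle tumours 14, 16 and 33. Vehicle tumour 16, the highest vehicle tumour for Srm, was also the highest vehicle tumour for this list, and the vehicle tumours 14 and 33 were lowest of all 7 for both. Among the 4 PEGPH20 tumours the orders differed, since tumour 37 had the most Srm RNA but was the third for the list. All 10 proliferation genes had a larger mean with PEGPH20, and the part of proliferating cells in the Srm values was not tested. Within each group Srm also followed the skeletal muscle list in part, although all 10 muscle markers had a smaller mean with PEGPH20. The mean log2 level of the muscle list was 6.84, 1.07, 1.09 and 5.40 in PEGPH20 tumours 11, 12, 19 and 37. It was 2.61, 9.28 and 4.88 in vehicle tumours 14, 16 and 33. Without the 3 muscle-rich libraries the Srm difference was 0.68, and the part of muscle in the Srm values was not tested.

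**Figure D2:**
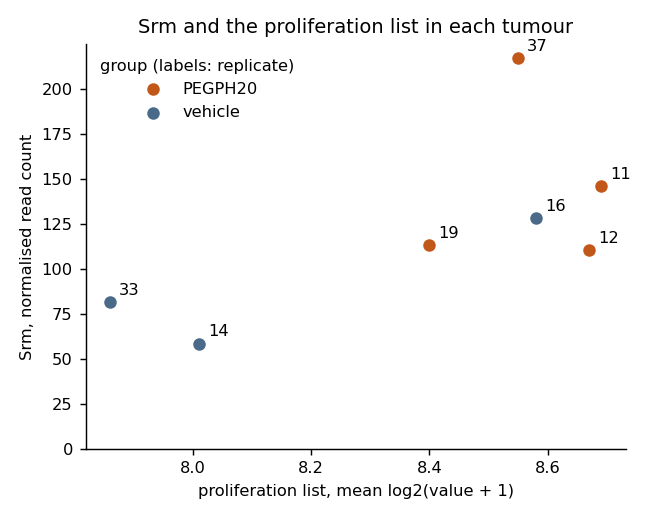
Srm normalised read count (vertical axis) against the mean log2(value + 1) of 10 proliferation genes (horizontal axis), 1 point per tumour, PEGPH20 and vehicle tumours marked apart. Vehicle tumours 14 and 33 sit at the lower left with 58.4 and 81.6 Srm normalised read counts, and vehicle tumour 16 sits with the PEGPH20 tumours at 128.

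Of the regulators of ornithine decarboxylase, Oaz1 (chromosome 10, 80826656 to 80829290, plus strand) encodes the main antizyme, which binds the enzyme and delivers it to the proteasome without ubiquitin. It had 297, 283, 299.9 and 356 in PEGPH20 tumours 11, 12, 19 and 37, against 234, 307 and 283 in vehicle tumours 14, 16 and 33. Vehicle tumour 16 exceeded 3 of the 4 PEGPH20 tumours. The means were 309 ± 32.2 with PEGPH20 and 274 ± 37.4 with vehicle, a log2 difference of 0.17 ± 0.12, which was 0.06 without vehicle tumour 14 and 0.10 without PEGPH20 tumour 37. Oaz2 (chromosome 9, 65668001 to 65690300, plus strand) encodes a second antizyme of more conserved sequence and lower abundance in most tissues. Its values were 240.3, 266, 301 and 275 in PEGPH20 tumours 11, 12, 19 and 37, against 216, 183 and 240.3 in vehicle tumours 14, 16 and 33. The groups met at a single value, 240.3, which PEGPH20 tumour 11 and vehicle tumour 33 shared to the digits given. Oaz2 averaged 271 ± 25.1 with PEGPH20 and 213 ± 28.8 with vehicle, a log2 difference of 0.35 ± 0.12.

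Azin1 (chromosome 15, 38487427 to 38519266, minus strand) encodes antizyme inhibitor, a relative of ornithine decarboxylase without enzyme activity that draws antizyme away. It had 331, 302, 297 and 333 in PEGPH20 tumours 11, 12, 19 and 37, against 272, 346 and 287 in vehicle tumours 14, 16 and 33. Vehicle tumour 16 was the highest of all 7 and vehicle tumour 14 the lowest. The means were 316 ± 18.9 with PEGPH20 and 302 ± 39.4 with vehicle, a log2 difference of 0.07 ± 0.11. That value was -0.00042 without vehicle tumour 14, 0.17 without vehicle tumour 16, 0.04 without vehicle tumour 33, and 0.05 and 0.04 without PEGPH20 tumours 11 and 37. An antisense gene, Gm49077, lies over Azin1 exons, which makes this value uncertain for the same reason as Paox.

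**Figure D3:**
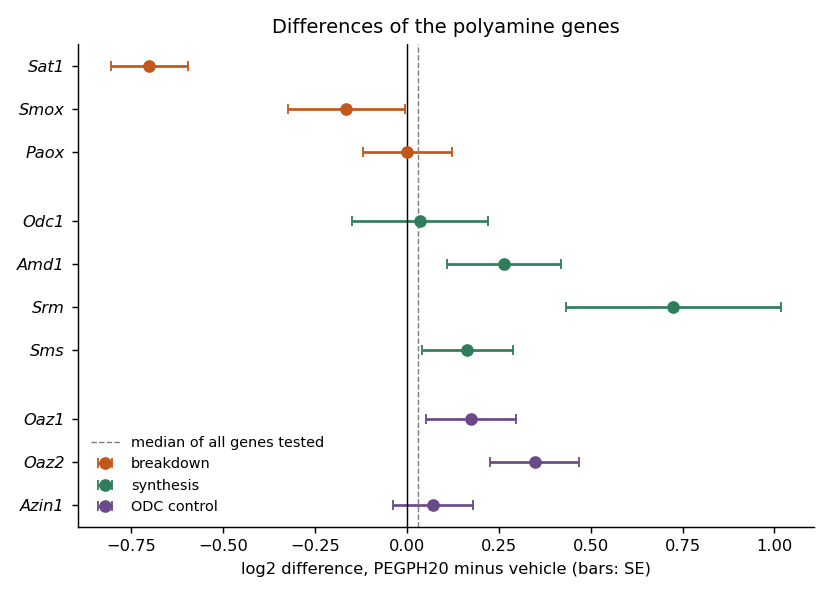
Difference in mean log2(value + 1), PEGPH20 minus vehicle, for the 10 polyamine genes (horizontal axis; points with 1 SE from limma), grouped by role down the page, with a dashed line at the median of all genes tested (0.03). Sat1 lies at -0.70 and Srm at 0.72, and the other 8 genes lie between -0.16 and 0.35.

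Ratios within a library hardly depend on its size factor, so the balance between opposing steps was set out as log2 ratios, each the difference of 2 log2(value + 1) values. The ratio of Odc1 to Sat1, the entry to synthesis over the entry to breakdown, was -1.71, -1.43, -1.85 and -1.81 in PEGPH20 tumours 11, 12, 19 and 37, against -2.60, -2.12 and -2.59 in vehicle tumours 14, 16 and 33. The groups did not overlap, and every PEGPH20 tumour was higher. Sat1 alone had no overlap either and Odc1 alone did, so this ratio is no second result beside Sat1. The mean was -1.70 ± 0.19 with PEGPH20 and -2.44 ± 0.27 with vehicle, a difference of 0.74, beside differences of 0.04 for Odc1 and -0.70 for Sat1 themselves. For Smox over Sat1 the difference was 0.54, with means of 0.86 ± 0.21 with PEGPH20 and 0.33 ± 0.44 with vehicle, and vehicle tumour 14 lay inside the PEGPH20 range; without vehicle tumour 33 the difference was 0.29. The other 4 ratios also overlapped between groups: Srm over Sms differed by 0.56, Amd1 over Odc1 by 0.23, Oaz2 over Oaz1 by 0.17 and Azin1 over Oaz1 by -0.10. Single libraries moved all 4. Srm over Sms was 0.35 without vehicle tumour 14 and 0.375 without PEGPH20 tumour 37, and Amd1 over Odc1 was 0.06 without PEGPH20 tumour 37 and 0.15 without vehicle tumour 16. Oaz2 over Oaz1 turned to -0.017 without vehicle tumour 16 and was 0.30 without vehicle tumour 14 and 0.11 without PEGPH20 tumour 19. Azin1 over Oaz1 was -0.06 without either PEGPH20 tumour 37 or vehicle tumour 14 and -0.16 without vehicle tumour 33. Because the libraries read 3′ ends and the ratios are between different genes, only their differences between groups are interpreted, and not their sign within a tumour.

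**Figure D4:**
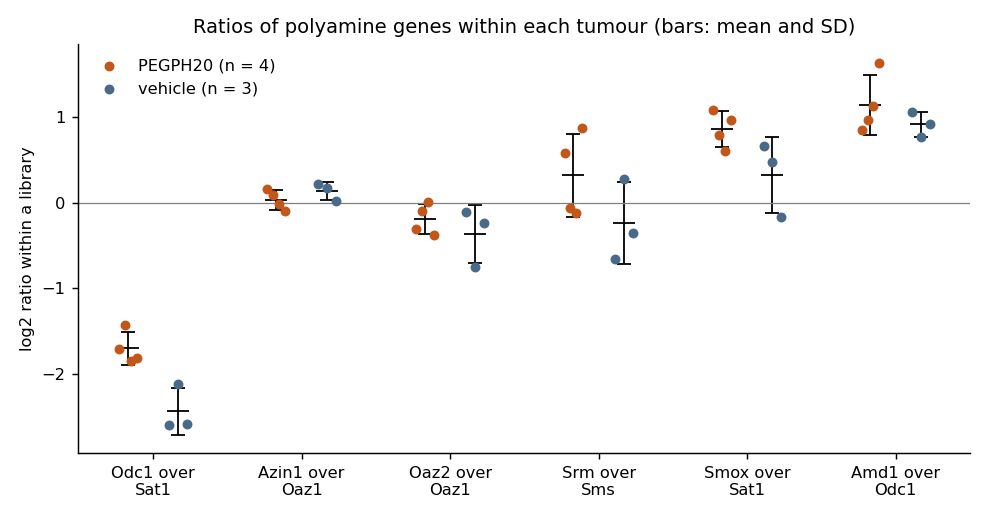
Log2 ratios, as differences of log2(value + 1), between pairs of polyamine genes (vertical axis), PEGPH20 tumours left of vehicle tumours in each pair, points for tumours and bars for the mean with 1 SD. Odc1 over Sat1 lies between -1.85 and -1.43 with PEGPH20 and between -2.60 and -2.12 with vehicle, and the groups overlap for the other 5 ratios.

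Tumours are mixtures, so fewer cells of a type and less RNA per cell cannot be told apart in these values. Fibroblast markers lay on the same side as Sat1, and all 10 had a smaller mean with PEGPH20. The mean log2 level of the list was 7.80 to 8.89 in PEGPH20 tumours and 8.74 to 9.93 in vehicle tumours. By tumour the orders differed, since PEGPH20 tumour 19 (8.89) was above vehicle tumour 16 (8.74) for this list but not for Sat1. The summed fibroblast markers lay between 8307 and 21560.0 normalised read counts in PEGPH20 tumours and between 17480.0 and 44661 in vehicle tumours, with none of the 10 at 0. Skeletal muscle markers, all 10 detected, were uneven, at 1.07 to 6.84 in PEGPH20 tumours and 2.61 to 9.28 in vehicle tumours. Without the 3 libraries richest in muscle transcripts (PEGPH20 11 and 37 and vehicle 16) the Sat1 difference was -0.68. All 6 keratinocyte markers had a smaller mean with PEGPH20, at a level of 1.90 to 2.39 in PEGPH20 tumours and 2.17 to 7.10 in vehicle tumours, the highest being vehicle tumour 14; without that tumour the Sat1 difference was -0.75. Macrophage markers overlapped, at 7.96 to 8.28 in PEGPH20 tumours and 7.70 to 8.57 in vehicle tumours. Endothelial markers had 7 smaller and 1 larger mean with PEGPH20, at 4.97 to 5.64 in PEGPH20 tumours and 5.50 to 5.72 in vehicle tumours. Of the epithelial markers, Epcam, Cldn4 and Elf3 were also lower without overlap, and Cldn7 was higher without overlap. The part of fibroblasts or of any other cell type in the Sat1 values was not tested.

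The genes around the pathway were taken from 6 lists with 51 genes, of which 39 passed the filter on low values. The lists were chosen with earlier results of these data known. Their counts, shares and directions, here and below, are therefore descriptions from which nothing is read about the pathway. In the limma fit across all genes, 0 of the 39 passed the adjusted threshold in either direction, and edgeR and DESeq2 also called 0, of 35 and 28 tested. At an unadjusted p under 0.05 there were 8 higher and 3 lower genes, 28.2% of the 39 against the 12.2% of all genes given above; edgeR gave 7. The 11 became 5 of 39 without PEGPH20 tumour 37, 6 of 40 without vehicle tumour 14 and 17 of 40 without vehicle tumour 16. The count over all genes moved the same way, to 1391 of 17150, 1640 of 17067 and 3465 of 17044. It was 2083 of 17132 in the main fit and at its lowest, 1321 of 17102, without vehicle tumour 33. Counts per list given below for a left-out library have these shifts behind them. The difference between 28.2% and 12.2% was not tested, and 22 of the 39 had larger and 17 smaller mean values with PEGPH20. Without overlap, 8 of the 39 were higher and 1 lower with PEGPH20, beside 6.72% and 4.45% of all genes tested. The genes below are named because their unadjusted p was among the 3 smallest of their list, unless said otherwise, and the p-values with them are from limma.

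The methionine cycle and the salvage of methylthioadenosine, the by-product that Srm and Sms release each time they use an aminopropyl group, had the most uniform direction. All 9 tested genes had larger means with PEGPH20, with a median log2 difference of 0.26 against 0.03 for all genes, and 6 of the 9 had an unadjusted p under 0.05, none with an adjusted p under 0.05. The 6 became 3 with edgeR, with DESeq2 or with either of their scalings in limma and 3 to 5 when a library was left out, the 3 arising without vehicle tumour 14 and without PEGPH20 tumour 19 or 37. In addition, 8 of 9 rather than 9 were larger without vehicle tumour 33, without PEGPH20 tumour 37 and without the 3 muscle-rich libraries. Mri1, the isomerase of the salvage route, had 83.7, 79.2, 84.0 and 104 in PEGPH20 tumours 11, 12, 19 and 37, against 52.3, 59.7 and 54.7 in vehicle tumours 14, 16 and 33. The groups did not overlap, as was so for 6.72% of all genes in this direction. The log2 difference was 0.64 ± 0.14, with an unadjusted p of 0.00125 and an adjusted p of 0.275 over all genes. Enoph1, a later enzyme of the same route, averaged 94.4 ± 7.61 with PEGPH20 and 68.1 ± 11.4 with vehicle (adjusted p = 0.333). Ahcy, which clears S-adenosylhomocysteine, averaged 95.5 ± 13.8 with PEGPH20 and 68.4 ± 6.06 with vehicle (adjusted p = 0.334).

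Mtap, the phosphorylase that opens methylthioadenosine salvage, was added after its values were seen. It had 1296, 1417, 1558 and 1467 normalised read counts in PEGPH20 tumours 11, 12, 19 and 37, against 1230, 1156 and 1273 in vehicle tumours 14, 16 and 33. The Mtap groups did not overlap, as for 6.72% of all genes in this direction, although PEGPH20 tumour 11 and vehicle tumour 33 were close. The log2 difference was 0.23 ± 0.09 (adjusted p = 0.379). Mtap and Mri1 had larger means with PEGPH20, on the same side as Srm, and neither passed the adjusted threshold.

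**Figure D5:**
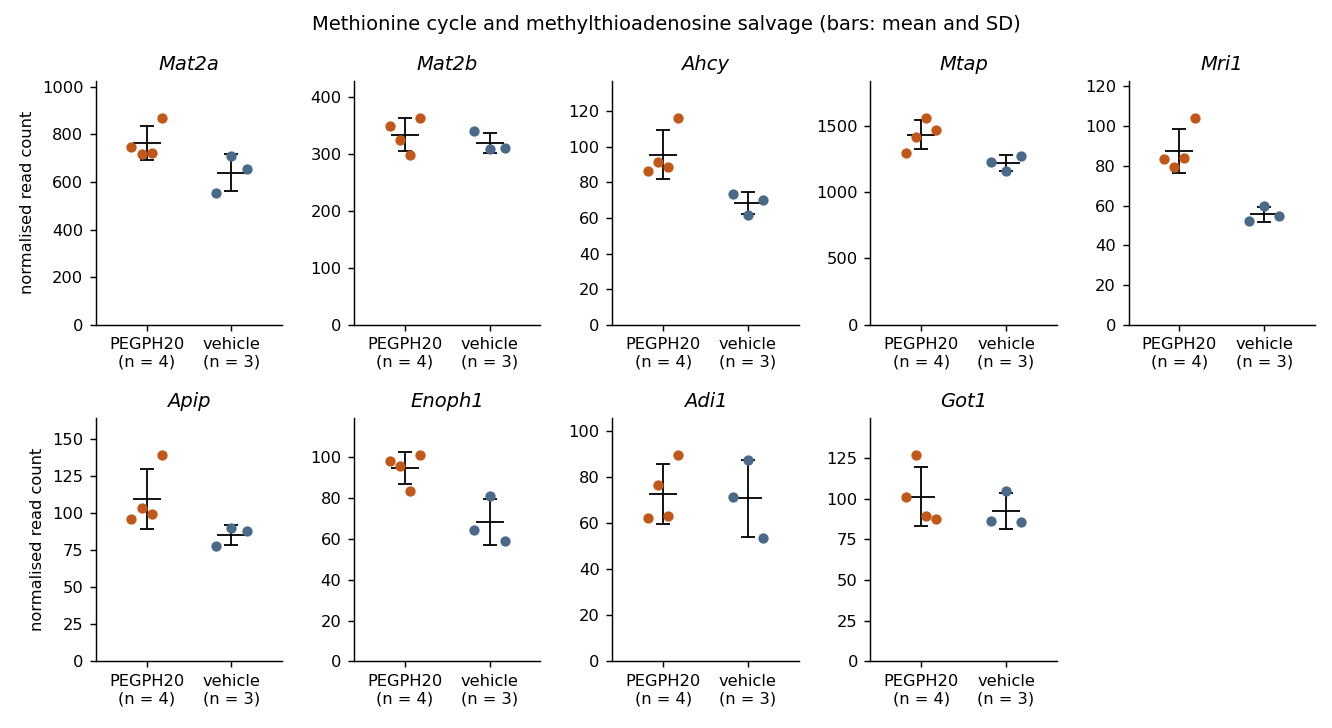
Normalised read count (vertical axes, linear, starting at 0) of the tested genes of the methionine cycle and methylthioadenosine salvage, PEGPH20 tumours left and vehicle tumours right, with group means and 1 SD. Mri1 lies between 79.2 and 104 with PEGPH20 and between 52.3 and 59.7 with vehicle.

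Hypusine, a modified lysine of the translation factor eIF5A, is made from spermidine by Dhps and Dohh. Of the 4 genes in this list, 3 had larger means with PEGPH20 and 2 had an unadjusted p under 0.05. The 2 became 1 with edgeR, with DESeq2, with either of their scalings in limma, with no filter, without the 3 muscle-rich libraries and without any single library other than vehicle tumour 16, and the 3 became 2 without vehicle tumour 33. Dohh, the hydroxylase of the last step, had 76.2, 77.9, 76.8 and 94.1 in PEGPH20 tumours 11, 12, 19 and 37, against 32.3, 61.6 and 54.7 in vehicle tumours 14, 16 and 33. All PEGPH20 values lay above all vehicle values, as was so for 6.72% of all genes. The log2 difference was 0.75 ± 0.22, with an unadjusted p of 0.00685 and an adjusted p of 0.317, and it was 0.47 without vehicle tumour 14; the predicted gene Gm48551 overlaps Dohh exons on the same strand, so the value is uncertain. Dhps, which transfers the spermidine part, averaged 71.8 ± 5.27 with PEGPH20 and 57.8 ± 4.00 with vehicle (adjusted p = 0.406), and Wdr83 exons lie on its other strand. Eif5a2, a second form of the factor, averaged 4.86 ± 1.88 with PEGPH20 and 7.67 ± 0.93 with vehicle (unadjusted p = 0.11). It had only 6, 4, 8 and 10 reads in PEGPH20 tumours 11, 12, 19 and 37. Vehicle tumours 14, 16 and 33 had 10, 8 and 8, so the Eif5a2 difference rests on few reads.

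Supply of arginine and ornithine had 1 larger and 6 smaller means among 7 tested genes and 1 unadjusted p under 0.05. The balance was 3 larger and 4 smaller without vehicle tumour 16 and without the 3 muscle-rich libraries. The count at an unadjusted p under 0.05 was 3 without vehicle tumour 16, 2 without PEGPH20 tumour 12 and 0 without vehicle tumour 14 or 33 or PEGPH20 tumour 11 or 37. The gene counted was Ass1, which makes argininosuccinate on the way to arginine, at 63.7 ± 12.9 with PEGPH20 and 92.8 ± 23.9 with vehicle, a log2 difference of -0.52 ± 0.23 (adjusted p = 0.406). Arg1, the arginase that yields ornithine and a known product of myeloid cells, averaged 937 ± 281 with PEGPH20 and 1296 ± 260.5 with vehicle, a log2 difference of -0.50 ± 0.23 (adjusted p = 0.421). Neutrophil markers, a myeloid list of 6 genes, had 4 smaller and 2 larger means with PEGPH20. Their level was 4.76 to 5.27 in PEGPH20 tumours and 4.43 to 5.70 in vehicle tumours. Macrophage and monocyte markers, the other myeloid list, had 7 smaller and 2 larger means, at 7.96 to 8.28 with PEGPH20 and 7.70 to 8.57 with vehicle. The part of either cell type in the Arg1 values was not tested. Gatm, which diverts arginine to creatine, averaged 155 ± 19.9 with PEGPH20 and 133 ± 62.0 with vehicle (unadjusted p = 0.255).

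Transport genes split evenly, with 4 larger and 4 smaller means among 8 tested and 2 unadjusted p under 0.05, a count that was 4 without vehicle tumour 16 or 33 and 1 without PEGPH20 tumour 12 or 37. Cav1, the caveolin of the membrane pits through which polyamines can enter, averaged 368 ± 47.3 with PEGPH20 and 471 ± 43.3 with vehicle. Its log2 difference was -0.36 ± 0.12 (adjusted p = 0.348), with no overlap, as for 4.45% of all genes in this direction. Gpc1, a glypican whose heparan sulphate chains bind spermine, averaged 168 ± 55.9 with PEGPH20 and 266 ± 79.3 with vehicle, a log2 difference of -0.67 ± 0.25 (adjusted p = 0.369), with Ankmy1 exons on the other strand. Both genes are also expressed by stromal cells, and the fibroblast list given above lay on the same side. Vehicle tumour 16 had the most Cav1 (521) but the lowest fibroblast level of the vehicle tumours (8.74). Vehicle tumour 33 was the highest for both Gpc1 (355) and the fibroblast list (9.93). The part of stromal cells in the Cav1 and Gpc1 values was not tested. Atp13a2, a lysosomal polyamine exporter, averaged 44.5 with PEGPH20 and 34.0 with vehicle (unadjusted p = 0.0797).

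Of the 4 tested genes among other polyamine enzymes, antizymes and inhibitors, 2 had larger and 2 smaller means and 0 had an unadjusted p under 0.05 (2 without vehicle tumour 16 and 1 without PEGPH20 tumour 19). Sat2, a relative of Sat1 that acts mainly on thialysine, averaged 21.3 with PEGPH20 and 28.1 with vehicle, with a log2 difference of -0.43 (unadjusted p = 0.196). Aldh9a1, a dehydrogenase of aminoaldehydes, averaged 231 with PEGPH20 and 205 with vehicle (unadjusted p = 0.218). Azin2, a relative of Azin1, averaged 13.2 with PEGPH20 and 20.1 with vehicle (unadjusted p = 0.458). Of the 7 tested regulators, 3 had larger and 4 smaller means and 0 had an unadjusted p under 0.05, again 2 without vehicle tumour 16 and 1 without PEGPH20 tumour 19. Without vehicle tumour 14, 5 of the 7 were larger. Myc, named after its values were seen because Odc1 is its target, averaged 161 ± 29.0 with PEGPH20 and 148 ± 42.3 with vehicle (unadjusted p = 0.496). Nfe2l2, the antioxidant response factor, averaged 831 ± 93.3 with PEGPH20 and 748 ± 101 with vehicle (unadjusted p = 0.235). Trp53, whose product is known to induce SAT1 in human cells, averaged 21 with PEGPH20 and 26.1 with vehicle (unadjusted p = 0.231). Ppargc1a, a coactivator of mitochondrial genes, averaged 318 ± 106 with PEGPH20 and 196 ± 94.6 with vehicle (unadjusted p = 0.0572). The highest Ppargc1a values of each group were in the 3 muscle-rich libraries, at 354 and 452 in PEGPH20 tumours 11 and 37 and 283 in vehicle tumour 16. Its log2 difference of 0.77 was 0.72 without those libraries, 0.32 without vehicle tumour 33 and 1.1 without vehicle tumour 16. The part of muscle in the Ppargc1a values was not tested.

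The genes whose profile over the 7 libraries lay nearest to Sat1 were sought among 8209 genes with a mean of at least 50 normalised read counts, by the root-mean-square distance of log2 values centred on each gene's mean. Nearest was Jup, which encodes the junction protein plakoglobin, at a distance of 0.0468, against a median of 0.411 over all genes. It averaged 178 ± 18.6 with PEGPH20 and 287 ± 25.3 with vehicle. Next came Tmsb4x, the actin-binding thymosin beta 4, at 0.085, and then Sept9, Arl8a and Enc1 at 0.114, 0.115 and 0.128. These 5 genes had log2 differences between -0.71 and -0.50, as their choice by likeness to Sat1 makes nearly certain. For Odc1 the nearest were the taurine transporter Slc6a6 at 0.052, Cd84 at 0.0663, Mbtps1 at 0.0687, Asah1 at 0.0722 and Hdlbp at 0.0742, against a median of 0.245. Their log2 differences lay between -0.05 and 0.08, again as the choice by likeness makes nearly certain.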

How the data were processed

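RNA was measured in 7 tumour libraries made with a 3′ mRNA kit from 200 ng of total RNA and read from a single end for 75 nt, per the labels' protocols. Per the submitters' processing notes, reads were placed on GRCm38. Not given in the sources used here were the aligner, the counting and normalization tools, and the use of strand and of molecular identifiers. Each deposited column held 1 signal value per gene, which the values themselves show to be a read count that the authors divided by 1 size factor per library. Whole reads were recovered for 100% of the values with a tolerance of 0.01. The files were not raw counts, so the test for normalised values was used in place of a count test.

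Genes with a mean of at least 1 were tested with limma 3.58.1 (R 4.3.3, intensity trend, treatment as the only term) on log2(value + 1), which understates changes of low genes, with Benjamini-Hochberg adjustment over all 17132 genes and a threshold of 0.05. Alternatives were the edgeR 4.0.16 quasi-likelihood test and DESeq2 1.42.0 on the recovered reads, TMM or DESeq2 scaling in limma, a pseudocount of 0.1, no filter, a mean of at least 10, and each library left out in turn. Leaving out the 3 libraries richest in muscle transcripts was added after seeing the data. The scripts were tested on simulated data. Libraries of a group differed beyond sampling noise (chi-square per degree of freedom 7.1 to 17.9) and were kept as separate replicates.

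The 10 genes and all lists were chosen with earlier results of these data known. Named genes were the 10, the 3 with the smallest unadjusted p per list among those with a mean of at least 5, and the 5 most like Sat1 and Odc1 in profile, leaving out predicted models and pseudogenes. Copies were found with blastn 2.17.0 among GENCODE release M21 transcripts. Of the 47643 gene identifiers, 47224 had a symbol in the name table. No protein sequence was used here.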

Additional observations from a re-analysis of the deposited data

Results flagged for a closer look

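In 34 groups of 4 PEGPH20 tumours, 1 for each of the 10 genes, the 18 pathway genes named by rule and the 6 ratios, the highest and lowest tumour were compared with the rest, and chance alone marks about 1 in 20 such groups. Dohh, the hydroxylase of the hypusine step, had 1 tumour far from the others: PEGPH20 tumour 37 had 94.1 normalised read counts, and the gap to the next tumour was 0.909 of the group's range. Gpc1, the glypican, had 1 such tumour as well, PEGPH20 tumour 19 at 251 normalised read counts, with a gap of 0.858 of the range.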

How the results depend on the processing

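The number of genes past the adjusted threshold was 0 with limma and 77 with DESeq2, and lay between 0 and 3 when a library was left out, the 3 arising without vehicle tumour 16; the cause was not tested. None of the surrounding pathway genes that a setting could test passed in it, among 39 in the main fit, 35 with edgeR and 28 with DESeq2. The number of the 10 genes with a larger value in PEGPH20 tumours was 8, and lay between 5 and 8 when a library was left out; it was 5 without vehicle tumour 14. Among the 10 genes, Odc1, Paox and Azin1 changed sign in 4, 6 and 1 of the 15 other settings. Among the named pathway genes, 3 changed sign: Azin2 was 0.091 without vehicle tumour 33 (with a range of -1.02 to 0.091 when a library was left out), and Sat2 was 0.037 and Trp53 0.026 without the 3 muscle-rich libraries. Of genes with an unadjusted p under 0.05, 62.3% were higher with PEGPH20 under the authors' scaling, 54.4% under TMM and 50.4% under DESeq2 factors in limma, 48% with edgeR and 44.4% with DESeq2. Of the 6 ratios, 5 kept their sign when a library was left out or the pseudocount was 0.1, and Oaz2 over Oaz1 was -0.017 without vehicle tumour 16. No paired analysis was possible because the groups share no replicate numbers. With 3 and 4 tumours and 42 to 80 Odc1 reads per library, small differences of that gene cannot be resolved.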
